A study of Drosophila melanogaster with 2 samples.

Results

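Binding of toy-eGFP at chromosome 4 was examined at 2 genes, toy and ey, out of 13968 protein-coding genes on the chromosome arms. A peak belonged to a gene when it lay inside it or within 20 kb, or when the nearest protein-coding transcription start site (TSS) to its summit was there. The second criterion added 0 peaks to the first in any list. Chromatin immunoprecipitation sequencing (ChIP-seq) had been done on 2 biological replicates of 1 group, whole Drosophila melanogaster embryos of 0 to 24 h from the transgenic strain toy-GFP. Both replicates carried a toy-eGFP fusion, described as an insertion targeting toy, and chromatin sonicated to 200 to 800 bp was precipitated with an anti-GFP antibody. The labels do not say which promoter drives the fusion or where it sits, and they name a possible control that was not analysed here. With 1 group there is no contrast between conditions, so what follows is a description without tests. In whole embryos, fewer cells with a bound site and weaker binding per cell cannot be told apart.

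Both genes encode Pax6-type transcription factors, with a paired domain and a homeodomain that each bind DNA. In the fly eye primordium toy acts upstream of ey (eyeless), and it is known to activate ey through an eye-specific enhancer in an ey intron. The ey protein in turn starts the retinal determination network, which includes so, eya and dac. The coordinates of the known enhancer are not in the sources used here, and its overlap with the peaks was not tested.

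The deposited data are 8 peak lists, a thresholded and a ranked list for each replicate, for the conservative set of the series and for the second series set, called pooled here. The thresholded lists hold peaks with an irreproducible discovery rate (IDR) of at most 0.01, the IDR being a measure of how poorly a peak's rank repeats between paired peak sets. The ranked lists hold the same peaks and many more. The threshold was set on the IDR, so some peaks left out had higher signal values than some kept. Each peak has the authors' signal value, whose scaling the sources used here do not give, so values are compared within a list and set side by side across lists. Replicate 1 had 925 thresholded and 81037 ranked peaks and replicate 2 had 1098 and 115142. The conservative lists held 1404 and 128998 peaks and the pooled lists 1895 and 144830.

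The gene ey (FBgn0005558; dm6 chr4:697689-721173, plus strand, 23.5 kb) has 4 annotated transcripts and 3 start sites. Its peaks found in both replicates formed 3 sites in introns 2 and 3 of the canonical transcript. The reference sequence under each summit in the conservative ranked list is shown because the sites differ in what they are made of. The windows are chr4:709767-709967 for site 1, chr4:711970-712170 for site 2 and chr4:710432-710632 for site 3, each the summit with 100 bp on either side, on the plus strand of dm6, from RefSeq. Capitals in sites 1 and 2 mark bases of an annotated transposable element, and capitals in site 3 mark a match to the Pax6 paired domain consensus.
ey site 1: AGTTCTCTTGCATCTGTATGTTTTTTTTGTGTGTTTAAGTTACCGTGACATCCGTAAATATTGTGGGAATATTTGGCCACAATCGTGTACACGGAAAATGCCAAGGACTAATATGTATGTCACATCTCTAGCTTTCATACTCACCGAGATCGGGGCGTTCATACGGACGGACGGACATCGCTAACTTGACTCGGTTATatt
ey site 2: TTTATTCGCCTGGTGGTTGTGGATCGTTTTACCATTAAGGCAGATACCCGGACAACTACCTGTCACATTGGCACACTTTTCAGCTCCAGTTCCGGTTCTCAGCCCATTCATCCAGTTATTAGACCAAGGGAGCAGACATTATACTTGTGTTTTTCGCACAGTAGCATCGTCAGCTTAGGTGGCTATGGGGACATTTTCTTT
ey site 3: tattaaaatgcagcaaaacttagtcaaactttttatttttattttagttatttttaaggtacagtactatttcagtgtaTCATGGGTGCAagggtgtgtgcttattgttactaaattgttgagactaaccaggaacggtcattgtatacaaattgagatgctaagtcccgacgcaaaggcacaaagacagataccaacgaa

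Site 1 was the sole thresholded peak of ey. It had a signal value of 81.7 in the conservative list (chr4:709697-710036), 81.7 in the pooled list, 50.5 in replicate 1 and 31.96 in replicate 2. The IDR was 0.00571, 0.00248, 0.00827 and 0.0631 in the same order, so the site was on the thresholded side in every list except that of replicate 2. In the conservative thresholded list it ranked 1066 of 1404, below the list's median signal of 106. In the ranked lists its value was at or above that of 98.9% of the peaks of replicate 1 and 97.5% of those of replicate 2. The summit lay in intron 2 (chr4:707672-710916), 2438 bp downstream of the nearest ey start site, which is the last of the 3.

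Site 2 and site 3 appeared in the ranked lists alone. Site 2 (chr4:711900-712239), in intron 3, had a signal value of 50.03 in the conservative and in the pooled list, 24.3 in replicate 1 and 30.7 in replicate 2. Site 3 (chr4:710362-710701), in intron 2, had 45.1 in both series lists, 25.2 in replicate 1 and 23.3 in replicate 2. Replicate 1 ordered the sites 1, 3, 2 and replicate 2 ordered them 1, 2, 3. The values of sites 2 and 3 were close in replicate 1, and a single value per replicate gives no error for this order. The conservative IDR was 0.0623 at site 2 and 0.124 at site 3, both above the threshold of 0.01. At site 2 it was 0.0355 in the pooled list, 0.826 in replicate 1 and 0.173 in replicate 2. At site 3 it was 0.349, 0.553 and 0.863 in the same order, so neither site passed in any list. Summits of sites 1 and 3 were 665 bp apart, and those of sites 1 and 2 were 2203 bp apart.

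**Figure D1:**
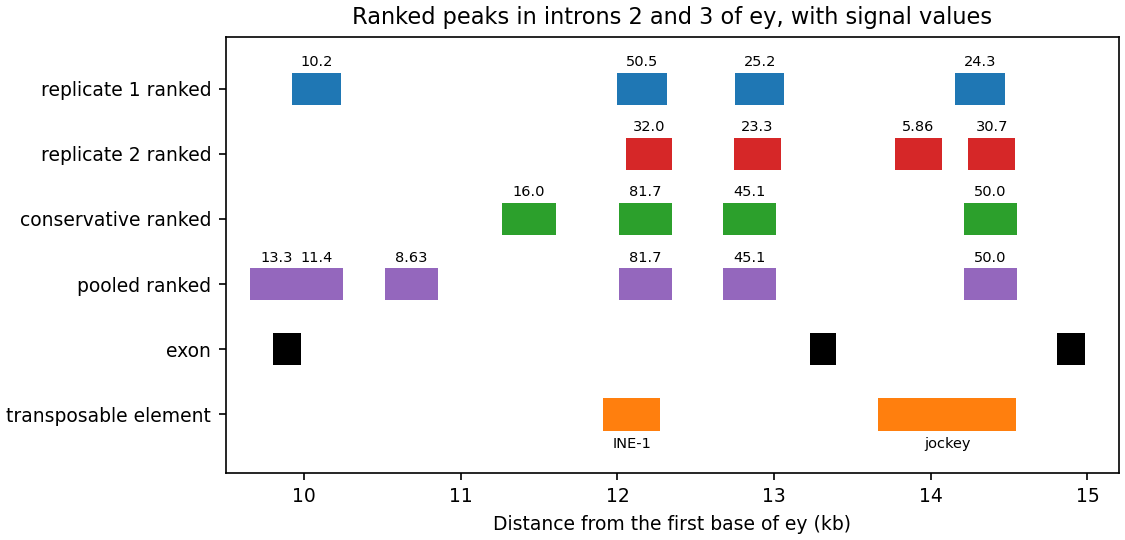
Ranked peaks in introns 2 and 3 of ey, by list, against the distance from the first base of ey in kb, with the authors' signal value above each peak, exons in black and transposable elements in orange. The columns of peaks at sites 1, 3 and 2, from left to right, are present in all 4 ranked lists, and sites 1 and 2 lie over an INE-1 and a jockey element.

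Counted over the gene and 20 kb on each side, ey had 1 peak in the conservative thresholded list, where 44.9% of all protein-coding genes had at least 1. It had 1 in the pooled list (53.1% of genes) and 1 in that of replicate 1 (34.3%). In the thresholded list of replicate 2 it had 0 (38.3% of genes had a peak). The ranked lists gave 4 conservative peaks (98.4% of genes had a peak), 6 pooled (99.0%), 19 in replicate 1 (99.0%) and 4 in replicate 2 (98.6%). Having a peak by these counts therefore does not set ey apart from genes in general. Among the 80 genes of chromosome 4 a thresholded peak was less common. In the conservative thresholded list 5 of them (6.25%) had one, and in the pooled thresholded list 11 (13.8%). In replicate 1 the count was 20 of 80 and in replicate 2 it was 1. The conservative thresholded list held 2 peaks on the chromosome, and 4 of its 5 genes, ey among them, had the ey peak.

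Replicate 1 had 13 of its 19 ranked summits inside ey, in introns and exons from its first start site on, whereas the 4 of replicate 2 lay in introns 2 and 3. Of the 19, 3 (15.8%) overlapped a ranked peak of replicate 2, and these were sites 1, 2 and 3. The share was 7.9% for the ranked peaks of replicate 1 on chromosome 4 and 62.7% for all of them. The strongest that did not was in the first part of the gene (chr4:701264-701579), with a signal value of 37.5 in replicate 1 and an IDR of 0.829. Next came a peak over an exon (chr4:714186-714501) with 27.0 and an IDR of 0.461. The peaks that replicate 2 lacked had values from 2.19 to 37.5, and 2 of them, at 37.5 and 27.0, exceeded the 25.2 and 24.3 of sites 3 and 2. Signal in replicate 1 thus did not fully order the peaks by whether replicate 2 had them, although every peak below 24.3 was without a counterpart there.

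No thresholded peak lay at an ey start site. The nearest ranked peaks to a start site were weak, with signal values of 12.3 in replicate 1, 72 bp downstream of the first start site, and 13.3 in the pooled list, 86 bp downstream of the last. A peak of replicate 1 at 10.2 had its summit 342 bp downstream of the last start site. Replicate 2 had no peak at any of the 3 start sites. One further conservative ranked peak lay in intron 2 (site 4, chr4:708955-709294), with a signal value of 16.0 and an IDR of 0.891, and neither replicate had a peak there. The remaining peak of replicate 2, at 5.86, lay in intron 3 (chr4:711464-711759).

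Transposable elements made up the sequence at the summits of sites 1 and 2. INE-1 and jockey are a short and a long family of such elements in flies. The summit of site 1 was inside an INE-1 copy (FBti0060020; chr4:709595-709964), and elements covered 78.8% of the conservative peak. That of site 2 was inside a jockey copy (FBti0064176; chr4:711351-712236), and elements covered 99.1% of the peak. Site 3 held none.

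A summit within an element was rare among the thresholded peaks. In the conservative thresholded list, 5 of 1402 summits on the arms (0.357%) were inside an annotated element, while elements made up 5.91% of the bases of the arms. Of the 5, 4 were in INE-1 copies, and site 1 was one of these. The arms carry 2235 annotated INE-1 copies, 344 of them on chromosome 4, and the copy in ey was the 1 on chromosome 4 with a conservative thresholded summit. The ey window itself held 17 elements, 12 of them INE-1, and they made up 12.9% of its bases against 24.8% for chromosome 4. In the ranked lists a summit in an element was less rare on chromosome 4, with 95 of 481 (19.8%) in replicate 1 and 35 of 94 (37.2%) in replicate 2.

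Because reads from repeats can be placed at the wrong copy, the peaks were checked for stretches of 32 bp that occur elsewhere in the reference. Such stretches were 0.971% of those in the conservative peak of site 1, 1.94% at site 2 and 0% at site 3. In the replicates' own peaks at site 1 the share was 0% in replicate 1 and 1.13% in replicate 2. The mean over all conservative thresholded peaks on the arms was 0.245%. By this count of exact matches, both element sites were almost wholly made of sequence found once in the reference. Copies that differ at some bases were not counted, so the check cannot show whether reads were misplaced. The sources used here do not give the read length, and copies in the strain used may differ from the reference.

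**Figure D2:**
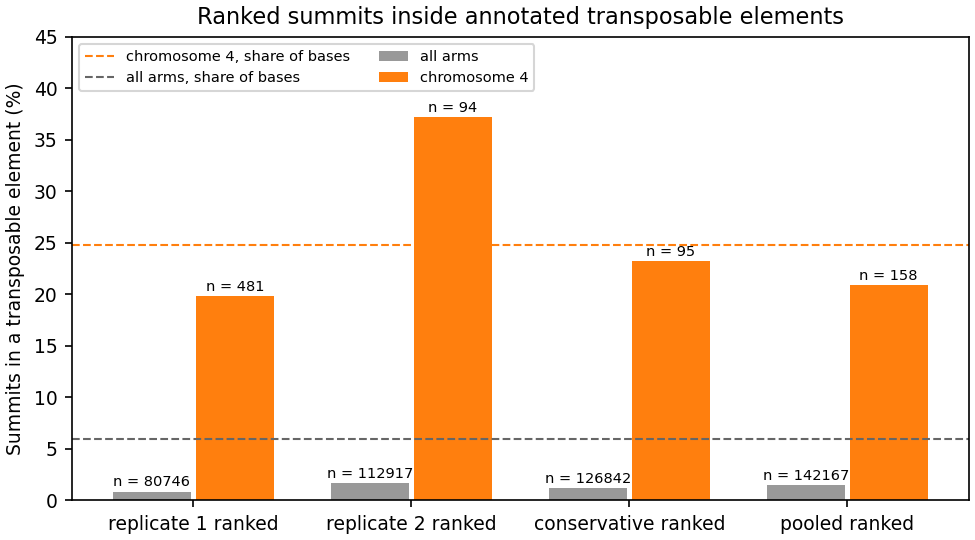
Share of ranked summits inside annotated transposable elements, in percent, for each ranked list over all arms (grey bars) and over chromosome 4 (orange bars), with the number of summits above each bar and the share of bases in elements as dashed lines. On chromosome 4 the share was 19.8% in replicate 1 and 37.2% in replicate 2, around the 24.8% of its bases, while over all arms every bar was below 5.91%.

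Motifs were searched on both strands of the windows of 100 bp on either side of a summit. They were the paired domain core TTCACGC, the Pax6 paired domain consensus of 11 letters with up to 2 mismatches, the homeodomain core TAATTA and the paired-class homeodomain dimer with up to 1 mismatch. The others were TATCGATA (DRE), GAGAG (the core of GAGA factor sites), CACACACA and CAGGTAG (Zelda). The consensus contains the core, and the dimer can contain the homeodomain core. Site 1 held 0 matches to the 8 motifs, also with 200 bp on either side. Site 2 held 1 match, to the Zelda motif, which 1.27% of the windows of the conservative ranked list had. Site 3 held 1 match, to the Pax6 consensus (chr4:710511-710521), and 10.8% of windows in that list had such a match. A match at that frequency only describes the sequence.

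The gene toy (FBgn0019650; dm6 chr4:989725-1007922, plus strand, 18.2 kb) has 3 annotated transcripts and 1 start site. No peak in its window was shared by the replicates. In the thresholded lists toy had 0 conservative peaks, 1 pooled, 4 in replicate 1 and 0 in replicate 2, beside the same shares of genes as for ey. In the ranked lists it had 0, 1, 21 and 0 in the same order. All 21 peaks of replicate 1 were thus without a ranked peak of replicate 2, and 0 thresholded summits of any list lay inside toy itself. Of all ranked peaks of replicate 1, 62.7% overlapped one of replicate 2, but on chromosome 4 38 of 481 (7.9%) did, a share at which 0 of 21 does not set toy apart.

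Of the 4 thresholded peaks of replicate 1, the one closest to the start of toy had its summit 21 bp upstream of it. This peak (chr4:989546-989861) had a signal value of 82.5 and an IDR of 0.000225, and it was in no other thresholded list. A second (chr4:985491-985806; 76.7) had its summit 4076 bp upstream, and the strongest (chr4:982837-983152; 122) was farther upstream. The nearest start site to the strongest was that of fuss, a Ski/Sno family gene, at 4506 bp. These 3 summits lay upstream of toy in replicate 1 and had no counterpart in the other replicate or in the series lists. That absence is common on chromosome 4, where 30 of the 80 genes had a conservative ranked peak and 38 a pooled one. The labels do not say how much toy sequence the fusion carries, so peaks at the resident gene and at a transgenic copy of it cannot be told apart.

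The remaining peak of replicate 1 lay beyond the other end of toy, 19.2 kb from it, and 195 bp upstream of the start site of PlexA, which encodes plexin A, a receptor for semaphorins in axon guidance. Its signal value was 114 in replicate 1 (chr4:1027138-1027453) and 312 in the pooled list (chr4:1027200-1027380), and neither replicate 2 nor the conservative ranked list had a peak there. With an IDR of 1.76e-05 it ranked 94 of 1895 in the pooled thresholded list. It was the strongest of the 3 pooled thresholded peaks on chromosome 4 and is counted for toy through the window alone, since PlexA is its nearest gene. The window ended close to it: the outermost ranked peak of replicate 1 inside was 19.7 kb from toy with a signal value of 18.4, and the first outside was at 20.1 kb with 24.1. At ey the corresponding peaks were at 19.1 kb with 2.19 and at 20.7 kb with 18.3.

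The sequences of the promoter peaks of toy and PlexA are shown because each has its summit directly upstream of a start site. The first sequence is chr4:989604-989724, which ends 1 base before the start of toy, although the peak itself runs on into the gene. The second is chr4:1027196-1027396. Both are on the plus strand of dm6, from RefSeq. PlexA is transcribed toward the lower coordinates. Capitals mark motif matches.
toy promoter site: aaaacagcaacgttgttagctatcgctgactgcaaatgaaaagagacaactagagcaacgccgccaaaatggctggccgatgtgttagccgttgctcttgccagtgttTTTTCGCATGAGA
PlexA promoter site: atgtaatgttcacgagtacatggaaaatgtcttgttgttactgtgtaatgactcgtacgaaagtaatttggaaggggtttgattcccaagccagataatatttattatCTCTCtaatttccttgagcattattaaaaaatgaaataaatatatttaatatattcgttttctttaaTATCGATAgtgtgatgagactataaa

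At the toy promoter the capitals mark a match to the Pax6 consensus (chr4:989712-989722) and the first bases of an overlapping GAGAG whose last base is the first base of toy. A second consensus match (chr4:989794-989804) was within 100 bp of the summit, downstream of the start. Of the windows in the thresholded list of replicate 1, 9.51% held the consensus and 26.2% held GAGAG. At the PlexA promoter the capitals mark GAGAG on the minus strand and the DRE, which 2.05% of these windows held. The other thresholded windows near toy held 0 matches. Over the full windows of 100 bp on either side of the summit, bases G and C made up 44.8% at toy and 28.4% at PlexA. The median in the list was 35.3%. At toy this window extends past the sequence shown, into the gene.

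Inside toy replicate 1 had 5 ranked summits and replicate 2 had 0. The strongest was in intron 5 (chr4:999818-1000133), with a signal value of 47.5 and an IDR of 0.0164, just above the threshold. It lay in an INE-1 copy that overlaps an R1A1 element, and 26.0% of its stretches of 32 bp occurred elsewhere in the reference. The rest inside toy had values from 12.9 to 32.6. Unlike at ey, elements were not under the 4 thresholded peaks near toy, although the toy window held 37 elements, 30 of them INE-1, making up 20.7% of its bases. Among its 21 ranked peaks of replicate 1, 6 summits (28.6%) were in an element.

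**Figure D3:**
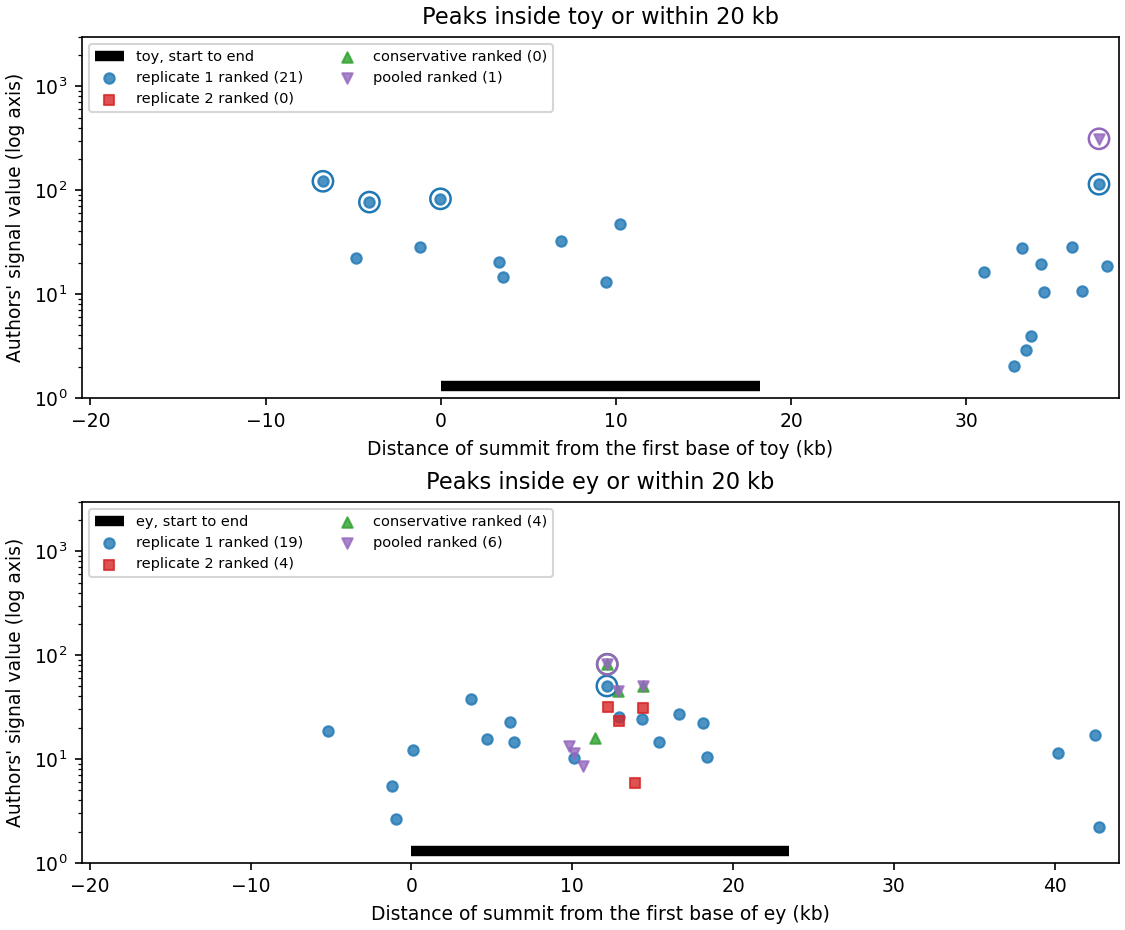
Authors' signal value (log axis) of every ranked peak inside toy (upper panel) or ey (lower panel) or within 20 kb, against the distance of its summit from the first base of the gene in kb, with rings around peaks that are also in the thresholded list of the same set. The toy window has 21 peaks of replicate 1 and 0 of replicate 2, while at ey the 4 peaks of replicate 2 fall in introns 2 and 3.

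The lack of replicate 2 peaks at toy was shared by much of chromosome 4. The median chromosome 4 gene of 80 had 19 ranked peaks in replicate 1 within the gene and 20 kb, and 0 in replicate 2. In replicate 1 every one of the 80 genes had a ranked peak, and in replicate 2 30 did, of which ey was one and toy was not. Divided into pieces of 10 kb, chromosome 4 had a ranked summit in 98 of 134 pieces in replicate 1 and 22 of 134 in replicate 2. On the long arms the shares were 87.8% and 91.8%. Chromosome 4 thus differed between the replicates, though not evenly along its length. The neighbours fuss and PlexA, like toy, had 0 ranked peaks in replicate 2, while dati had 20 and bt, beside ey, had 15. At JYalpha replicate 2 had 5 and replicate 1 had 3. Why replicate 2 had few peaks on the chromosome was not tested.

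Within chromosome 4, the density of ranked peaks in replicate 1 was mid-range at both genes. The toy window held 3.61 ranked peaks per 10 kb, place 45 of 80, and the ey window 2.99, place 53, where the genes ranged from 0.699 to 6.52 with a median of 3.95. In replicate 2 toy had 0, the lowest value, which 50 of the 80 genes shared, and ey had 0.63, place 23, where the highest gene had 3.33 and the median was 0. The thresholded peaks of replicate 1 were distributed otherwise. The 4 in the toy window were the most of any of the 80 genes, with 3 in the overlapping window of fuss, and ey had 1. In all, 5 of its 9 on chromosome 4 were in the windows of toy and ey, which make up 9.03% of the chromosome. Of its ranked peaks there, 40 of 481 (8.32%) were. Each window also had a long stretch without a ranked peak of replicate 1, of 20.4 kb at toy (chr4:1000134-1020582) and 21.5 kb at ey (chr4:716230-737715), 2 of the 13 stretches of 20 kb or more on the chromosome.

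**Figure D4:**
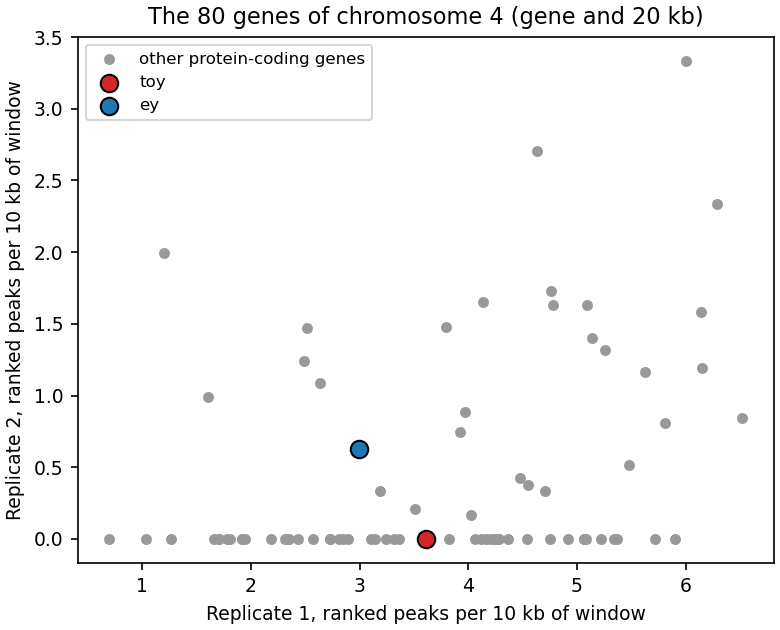
Ranked peaks per 10 kb of window (gene and 20 kb on each side) in replicate 1 and replicate 2 for the 80 protein-coding genes of chromosome 4, each point 1 gene, with toy in red and ey in blue. The points of 50 genes, toy among them, lie at 0 in replicate 2, and ey is at 2.99 and 0.63.

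By presence or absence in the thresholded lists, toy had a peak in the pooled list and in replicate 1 only, a pattern of 248 genes, 6 of them on chromosome 4. The other 5 on chromosome 4, PlexA, Mpv17, ATPsynbeta, CG11076 and CaMKII, were tied in likeness to toy, each with a highest replicate 1 signal of 114, since their windows hold the PlexA peak. The pattern of ey, present in all but replicate 2, was that of 502 genes. The most like on chromosome 4 were CG11360, bt and myo, whose windows hold the same ey peak at 50.5. The likeness in both cases is that of neighbours sharing a peak.

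Among 17 genes of the retinal determination network, with toy and ey included, 10 (58.8%) had a conservative thresholded peak in the gene or within 20 kb, against 44.9% of all genes. By nearest start site the count was 3 of 17 (17.6%), against 8.08% of all genes, and these were ey, the homeobox cofactor gene hth and the BMP ligand gene dpp. In replicate 1 the assigned count was 4 (23.5%, against 5.49% of all genes), and it included both ey and toy. In replicate 2 it was 2 (11.8%, against 6.47%), hth and dpp, and included neither. Of 10 Pax family genes, 3 (30.0%) had a conservative peak in the window and 1, ey, had one assigned to it. With lists of this size a difference of 1 or 2 genes moves these shares by several percentage points.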

How the data were processed

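ChIP-seq peak lists of toy-eGFP in whole embryos were read as deposited on dm6, per the labels. The signal value, the scaled IDR score, the score given as −log10 of the global IDR and the −log10 of the q-value of each peak are the authors' deposited values, from narrowPeak columns. The aligner, the peak caller and the scaling are not named in the sources used here. Per the text notes the submitters deposited, each replicate's lists came from its own alignments and the series' lists from both, with 1 further input common to the replicates. Read depth is unknown, and the number of peaks stands in its place. Labels call the replicates biological, and no comparison between groups was possible. A further 16 columns that name no sample were not used.

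Lists were read with pandas 2.3.3 and numpy 2.4.6 in Python 3.11.15. Genes and transposable elements came from Ensembl release 115, and sequence from RefSeq Release 6. Coordinates are 1-based. Peaks within 20 kb of a gene were counted, and replicates overlapped where any base was shared. Routines were tested on simulated data.

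The 2 genes, the gene lists, the motifs and the tests were chosen with earlier results of these data known. Named were toy and ey, their thresholded peaks, the 5 strongest ranked peaks of each list, neighbours within 1 kb of a thresholded summit, and the 3 most alike genes on chromosome 4, to which Mpv17 was added after its values were seen because it tied. Elements, repeated stretches and gaps were examined after the peaks were seen. Sequences are RefSeq reference bases, not reads. The alternatives tried were the other lists, each replicate alone, other windows, a stricter IDR and other summit windows.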

Additional observations from a re-analysis of the deposited data

How the results depend on the processing

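At toy the count of thresholded peaks, 0 in the conservative list, was 1 in the pooled list and ran from 0 to 4 with 1 replicate alone, 4 being replicate 1. The ranked count, 0, was 1 in the pooled list and ran from 0 to 21, 21 being replicate 1. At ey the 1 thresholded peak was absent without replicate 1 and present without replicate 2 (0 to 1), and the count was 0 at an IDR of at most 0.001. The 4 ranked peaks at ey became 17 within 50 kb and ran from 4 to 19 with 1 replicate alone. The highest signal value at ey was 81.7 in the conservative ranked list, where it was at the 99.1 percentile. It was 32.0 without replicate 1 and 50.5 without replicate 2. These come from different lists, whose scaling is not known, so they are not a range of 1 quantity. Of all genes, 44.9% had a thresholded peak within 20 kb and 21.0% within 5 kb. The 7 motif matches in the summit windows became 15 with 200 bp on either side. The 3 sites found in both replicates were also 3 with summits within 100 bp and with overlap of 50% of the shorter peak. No paired analysis was possible because there is a single group. The highest signal value at toy has no value in the conservative ranked list, and the identity of the proteins was not run, since no protein table was used here.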
